A study of Mus musculus with 6 samples.

Results

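The genes described here encode 5 G protein-coupled receptors for fatty acids and lipid metabolites, Ffar1, Ffar2, Ffar3, Ffar4 and Gpr119. They were taken by gene name from a deposited table of 54532 genes, where each name had 1 row, and all 5 entered the test, which took the 15927 genes whose FPKM averaged 0.5 or more. FPKM count fragments relative to gene length in kilobases and to a library size. Islets were taken from mice aged 7 weeks, those of 3 animals being combined for 1 sample, and 3 samples were sequenced for each of 2 genotypes. The first group carried the genotype label Wtap-βKO, a deletion of Wtap named for the insulin-producing β cells. The other was Wtap flox/flox, in which Wtap carries recombination sites. WTAP belongs to the methyltransferase complex that places N6-methyladenosine on RNA. The labels do not name the promoter that drives the deletion and give no further allele or treatment. The values are those of whole islets, so fewer cells of a type and less RNA per cell cannot be told apart.

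Free fatty acid receptors sense the chain length of their ligands. FFAR1 (GPR40) and FFAR4 (GPR120) bind long-chain fatty acids, whereas FFAR2 (GPR43) and FFAR3 (GPR41) bind short-chain ones such as acetate and propionate. GPR119 binds oleoylethanolamide and monoacylglycerols and couples to Gs, which raises cyclic AMP. In β cells FFAR1 couples mainly to Gq and amplifies the insulin response to glucose, FFAR3 couples to Gi, and FFAR2 couples to Gq and Gi. In mouse islets FFAR4 has been described mainly in somatostatin-producing δ cells.

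Whole reads could be recovered from the deposited values, and they came to between 16634843 and 17653297 per Wtap-βKO sample and between 16353297 and 18682745 per Wtap flox/flox sample. The library size by which the authors divided, read from the worth of 1 read, was larger than these totals in every Wtap-βKO sample (between 17244450 and 18852503) and smaller in every Wtap flox/flox sample (between 15795726 and 17790773). The deposited FPKM therefore carry a scaling other than total reads, which differs between the genotypes. With total reads in its place the log2 fold changes given below would be -1.50 for Ffar1, -1.32 for Ffar3, 0.95 for Ffar2, 0.79 for Ffar4 and 0.48 for Gpr119. Wtap, the targeted gene, showed no fall under the Wtap-βKO label, with 11.8 ± 0.552 FPKM in Wtap-βKO and 11.2 ± 0.545 FPKM in Wtap flox/flox (SD, n = 3 each; adjusted p = 0.475 by limma). The value takes in all exons and all cells of the islet, and the extent of the deletion is not stated in the labels, so whether it checks the genotype cannot be told. All directions that follow refer to the genotype labels of the libraries. The islet label was met by its markers: Ins2 and Gcg, the genes of insulin and glucagon, averaged 56850 and 36410 FPKM in Wtap-βKO and 89400 and 22500 FPKM in Wtap flox/flox.

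The 5 receptors moved in opposite directions. Ffar1 and Ffar3, which lie next to each other, were about equally lower in Wtap-βKO islets, 3.17-fold and 2.93-fold. Ffar2, the third gene of the same cluster, was 1.86-fold higher and Ffar4 1.65-fold higher. Gpr119 was 1.32-fold higher and did not pass the test. By limma, 2 receptors were higher and 2 lower at an adjusted p under 0.05, against 8.77% of all genes tested called higher, 11.3% called lower and 20.1% called in either direction. Of the genes called, 43.7% were higher, and 68.1% when samples were scaled to total recovered reads. The groups did not overlap for any of the 5, which also held for 41.3% of all genes tested. The receptors were chosen with results of these data known.

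Ffar1, Ffar3 and Ffar2 lie in a row on chromosome 7, all on the minus strand, with coordinates on GRCm38. Ffar1 (ENSMUSG00000044453) spans 30857390 to 30861564 and is a single exon of 4175 bases in GENCODE M21, with 900 coding bases. A further 3181 bases follow these, made up of the stop codon and the 3′ untranslated part. Ffar3 (ENSMUSG00000019429) spans 30854330 to 30856178 and starts 1211 bases after the end of Ffar1. A transcript that carries both coding regions has been described for this pair, and gene-level values cannot show whether reads of the pair come from 1 transcript or 2. Ffar2 (ENSMUSG00000051314) spans 30818348 to 30823775, a further 30554 bases on, and has 6 annotated transcripts of up to 3 exons. Ffar4 (ENSMUSG00000054200) lies on chromosome 19 from 38097079 to 38114263 on the plus strand, with 3 exons. Gpr119 (ENSMUSG00000051209) lies on chromosome X from 48667979 to 48674478 on the minus strand, with 2 exons. No member overlaps another gene of the table on either strand.

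The stretches upstream of the starts of the 3 clustered genes are shown because these neighbours moved in different directions. They come from RefSeq on GRCm38.p6, each cut to the bases before the annotated start, on the minus strand, 5′ to 3′. Capitals mark matches to any of 7 motifs searched on both strands: TGCTGAC (a half-site of MAF factors), CAGATG (an E-box bound by NEUROD1), TGACGTCA (the cyclic AMP response element), TAATTA (a homeodomain core), TGTTTAC (a forkhead motif), TATAAA (the TATA box) and CCAAT (the CCAAT box).
Ffar1 upstream, chr7:30861565-30861720: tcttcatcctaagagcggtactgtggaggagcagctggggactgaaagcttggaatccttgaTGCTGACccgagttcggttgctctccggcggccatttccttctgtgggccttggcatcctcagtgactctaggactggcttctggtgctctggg
Ffar3 upstream, chr7:30856179-30856428: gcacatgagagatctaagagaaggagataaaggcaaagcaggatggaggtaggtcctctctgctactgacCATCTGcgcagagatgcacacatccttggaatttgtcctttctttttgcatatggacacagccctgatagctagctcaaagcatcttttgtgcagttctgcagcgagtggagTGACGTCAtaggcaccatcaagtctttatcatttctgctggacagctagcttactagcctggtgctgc
Ffar2 upstream, chr7:30823776-30824025: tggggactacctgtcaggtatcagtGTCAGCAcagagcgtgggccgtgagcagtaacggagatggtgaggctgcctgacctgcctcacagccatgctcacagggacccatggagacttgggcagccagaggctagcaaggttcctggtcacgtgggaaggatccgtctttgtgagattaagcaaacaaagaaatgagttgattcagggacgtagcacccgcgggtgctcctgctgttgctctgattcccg

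Ffar1 and Ffar2 each held 1 TGCTGAC, read on opposite strands, beginning 94 and 225 bases before the annotated start. RefSeq has 4 windows for Ffar2, of which only the one farthest upstream was searched. Ffar2 transcripts with later starts are therefore not covered. Ffar3 held 1 CAGATG at 180 bases and 1 TGACGTCA at 68 bases before its start. The 3 motifs do not overlap. Of all 32851 RefSeq promoter windows of 300 bases, 4.67% hold TGCTGAC, 17.2% hold CAGATG and 1.79% hold TGACGTCA on either strand. The other 4 motifs are in 5.29% (TAATTA), 3.65% (TGTTTAC), 13.6% (TATAAA) and 37.4% (CCAAT) of windows. The printed Ffar1 stretch has 156 bases, since the RefSeq start lies 94 bases inside the GENCODE model. The stretches upstream of Ffar4 and Gpr119, of 242 and 250 bases, matched none of the 7. Those shares are for windows longer than the stretches searched here. In the full windows, which run past the annotated starts, Ffar1 and Ffar4 also held 1 CAGATG each and Ffar3 held 1 CCAAT. These are matches of letters, and binding was not measured.

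Ffar1 had 17.8, 17.3 and 18.1 FPKM in Wtap-βKO replicates 1 to 3, against 55.2, 58.0 and 55.3 FPKM in Wtap flox/flox replicates 1 to 3. These rest on 1402, 1294 and 1303 reads in Wtap-βKO and 4040, 3824 and 4107 reads in Wtap flox/flox. The Wtap-βKO samples lie close together, far below every Wtap flox/flox sample. Mean levels were 17.7 ± 0.398 FPKM in Wtap-βKO and 56.2 ± 1.57 FPKM in Wtap flox/flox (SD, n = 3 each). Log2 fold changes here are on the scale of FPKM + 1, save in alternatives with another pseudocount or with limma voom on recovered reads. On that scale Ffar1 fell by 1.61 (SE 0.050, adjusted p = 4.34e-05 by limma). Of the genes tested, 41 had a larger fall.

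Ffar3, the short-chain fatty acid receptor beside it, had 5.85, 7.58 and 5.43 FPKM in Wtap-βKO samples, against 19.8, 18.9 and 16.6 FPKM in Wtap flox/flox samples. The reads were 204, 251 and 173 in Wtap-βKO and 643, 552 and 545 in Wtap flox/flox. Every Wtap-βKO sample lay below every Wtap flox/flox sample, and replicate 2 was the highest of the Wtap-βKO group. Ffar3 fell by 1.42 on the log2 scale (SE 0.12, adjusted p = 0.000805 by limma), to 6.29 ± 1.14 FPKM in Wtap-βKO against 18.4 ± 1.69 FPKM in Wtap flox/flox.

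The ratio of Ffar1 to Ffar3 differed little between the groups. It was 3.04, 2.28 and 3.34 in Wtap-βKO samples and 2.78, 3.07 and 3.34 in Wtap flox/flox samples, with overlapping ranges. The log2 ratio was 1.51 ± 0.285 in Wtap-βKO and 1.61 ± 0.131 in Wtap flox/flox, a difference of -0.10 (two-sided exact permutation test, p = 0.6). That sign turned without Wtap-βKO replicate 2, to 0.061.

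**Figure D1:**
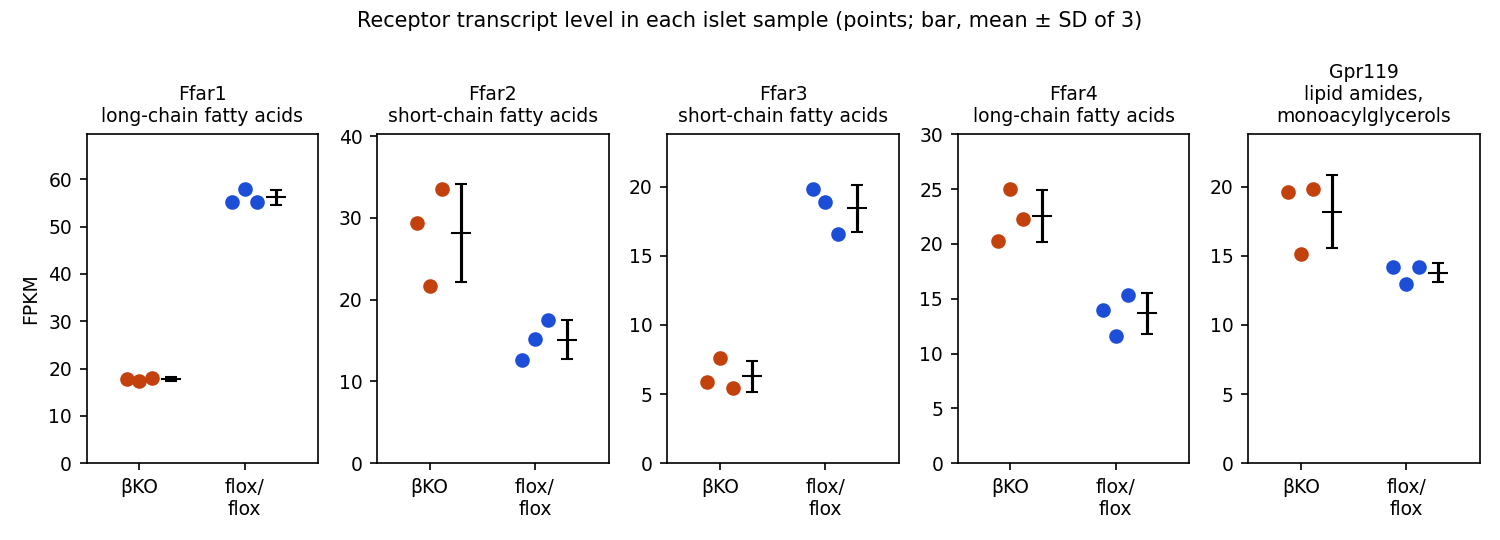
FPKM of each receptor in the 3 Wtap-βKO samples (left in each panel, orange) and the 3 Wtap flox/flox samples (right, blue), with the mean and SD of the 3 beside the points; each vertical axis starts at 0 and has its own range. The groups do not overlap in any panel, and the gap is widest for Ffar1, at 17.7 FPKM in Wtap-βKO and 56.2 FPKM in Wtap flox/flox.

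Ffar2, the other short-chain fatty acid receptor, had 29.3, 21.7 and 33.5 FPKM in Wtap-βKO samples, against 12.7, 15.2 and 17.5 FPKM in Wtap flox/flox samples. The reads were 1542, 1084 and 1614 in Wtap-βKO and 619, 670 and 869 in Wtap flox/flox. All Wtap-βKO samples were above all Wtap flox/flox samples, with replicate 2 the lowest of the Wtap-βKO group and nearest to the other genotype. Ffar2 rose to 28.2 ± 6.0 FPKM in Wtap-βKO, against 15.1 ± 2.42 FPKM in Wtap flox/flox (a log2 fold change of 0.85 with SE 0.17, adjusted p = 0.0168 by limma). The call was lost without Wtap flox/flox replicate 1 or 2 and without Wtap-βKO replicate 1, with adjusted p of 0.0554, 0.0544 and 0.0554 by limma. Over the alternatives run, its adjusted p ranged between 0.000808 and 0.0554.

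Ffar4, the long-chain receptor described in δ cells, had 20.3, 25.02 and 22.3 FPKM in Wtap-βKO samples, against 14.0, 11.6 and 15.4 FPKM in Wtap flox/flox samples. The reads were 533, 624 and 536 in Wtap-βKO and 342, 256 and 381 in Wtap flox/flox. The lowest Wtap-βKO sample was above the highest Wtap flox/flox sample. Ffar4 rose to 22.5 ± 2.37 FPKM in Wtap-βKO, against 13.7 ± 1.89 FPKM in Wtap flox/flox (a log2 fold change of 0.69 with SE 0.11, adjusted p = 0.00854 by limma).

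Gpr119, the Gs-coupled receptor for lipid amides, had 19.6, 15.1 and 19.8 FPKM in Wtap-βKO samples, against 14.2, 13.0 and 14.1 FPKM in Wtap flox/flox samples. The reads were 838, 615 and 776 in Wtap-βKO and 565, 465 and 571 in Wtap flox/flox. Replicate 2 of Wtap-βKO stood within 1 FPKM of the highest Wtap flox/flox samples, and the other Wtap-βKO samples lay well above. Means were 18.2 ± 2.64 FPKM in Wtap-βKO and 13.8 ± 0.696 FPKM in Wtap flox/flox, with a log2 fold change of 0.37 (95% interval 0.11 to 0.62, adjusted p = 0.0529 by limma). Over its alternatives the log2 fold change lay between 0.30 and 0.49 and the adjusted p between 0.00510 and 0.150. It passed without Wtap-βKO replicate 2 (adjusted p = 0.00510 by limma).

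**Figure D2:**
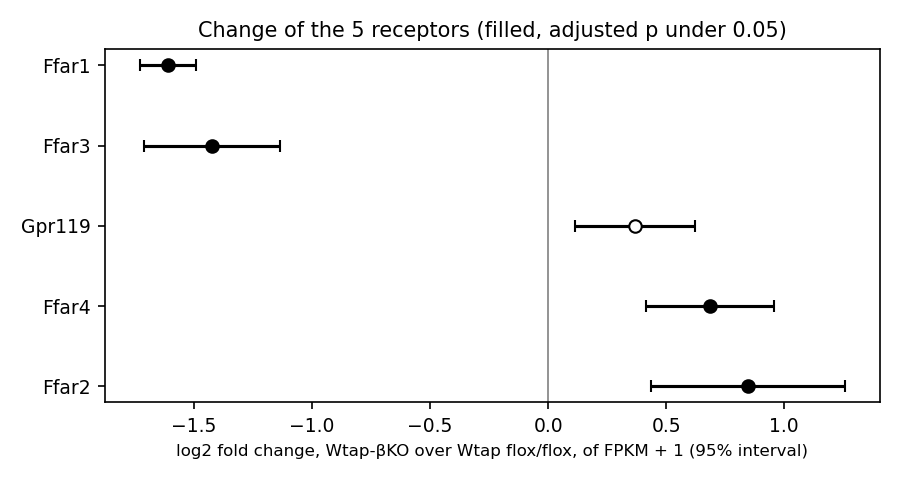
Log2 fold change of each receptor, Wtap-βKO over Wtap flox/flox, on the scale of FPKM + 1, with the 95% interval from limma; filled points passed an adjusted p of 0.05. Ffar1 and Ffar3 lie at -1.61 and -1.42, Gpr119 at 0.37, Ffar4 at 0.69 and Ffar2 at 0.85.

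Between receptors, 10 pairs were compared by the log2 ratio of their FPKM. For 7 pairs the ratio separated the groups completely (two-sided exact permutation test with p = 0.1, which is the lowest value possible for 3 against 3 samples; adjusted over the 10 pairs, p = 0.143). These were every pair of Ffar1 or Ffar3 with Ffar2, Ffar4 or Gpr119, and Ffar2 with Gpr119. The ratio of Ffar1 to Ffar2, neighbours of the same cluster, was 0.608, 0.798 and 0.540 in Wtap-βKO samples and 4.36, 3.81 and 3.16 in Wtap flox/flox samples. Ffar1 was thus below Ffar2 in every Wtap-βKO sample and above it in every Wtap flox/flox sample. Ffar2 against Ffar4 differed by 0.16 between the groups (exact permutation test, p = 0.6), within the spread of the samples, and Ffar4 against Gpr119 by 0.33 (exact permutation test, p = 0.2). Leaving out 1 sample moved the first of these to between 0.018, without Wtap flox/flox replicate 1, and 0.42, without Wtap-βKO replicate 2. It moved the second to between 0.13, without Wtap-βKO replicate 2, and 0.47, without Wtap-βKO replicate 1.

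The order of the levels changed accordingly. In Wtap-βKO islets the order by mean FPKM was Ffar2, Ffar4, Gpr119, Ffar1 and Ffar3, where the ranges of Ffar2 and Ffar4 overlapped, as did those of Gpr119 and Ffar1. In Wtap flox/flox islets it was Ffar1, Ffar3, Ffar2, Gpr119 and Ffar4, where Ffar1 stood apart and each later gene overlapped the next. FPKM divides by the length in the table, and for Ffar1 that length is mostly 3′ untranslated, so comparisons of level between genes depend on the annotated model.

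Added up, the 5 receptors came to 92.9, 86.8 and 99.2 FPKM in Wtap-βKO samples, against 116, 117 and 119 FPKM in Wtap flox/flox samples (exact permutation test, p = 0.1). Ffar1 and Ffar3 together gave 24.0 ± 0.754 FPKM in Wtap-βKO and 74.6 ± 2.54 FPKM in Wtap flox/flox. The other 3 receptors together gave 68.9 ± 6.92 FPKM in Wtap-βKO and 42.6 ± 3.89 FPKM in Wtap flox/flox. The share of Ffar1 in the sum was 19.1% ± 0.858 in Wtap-βKO and 47.9% ± 1.61 in Wtap flox/flox. The share of Ffar2 was 30.1% ± 4.57 in Wtap-βKO and 12.9% ± 1.91 in Wtap flox/flox (SD, n = 3 each).

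**Figure D3:**
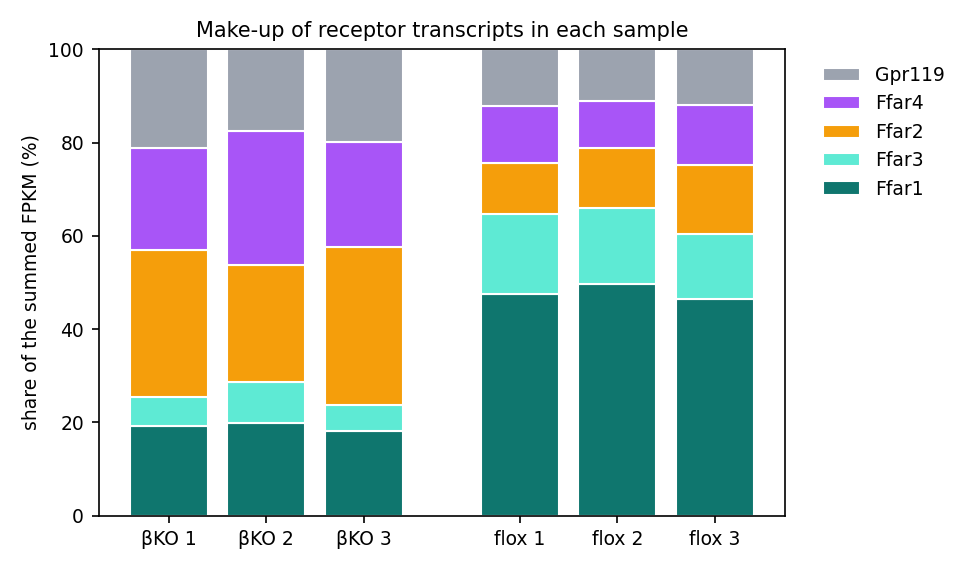
Share of each receptor in the summed FPKM of the 5, one bar per sample, with the 3 Wtap-βKO samples on the left and the 3 Wtap flox/flox samples on the right. Ffar1 takes between 18.2% and 19.9% of the bar in Wtap-βKO samples and between 46.5% and 49.7% in Wtap flox/flox samples.

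Around each receptor, the 5 genes on either side were taken in the order of their start coordinates. Of these 10, 4 or 5 were tested, and over all genes tested 20.1% were called. Cd22, a B-cell receptor gene 3837 bases before the start of Ffar1, was under the filter, at 0.330 ± 0.0409 FPKM in Wtap-βKO and 0.200 ± 0.0550 FPKM in Wtap flox/flox. Of the 10 genes taken around Ffar1, 4 were tested, and Ffar2 and Ffar3 were the ones called. Of the 10 genes taken around Ffar4, 5 were tested and Rbp4 was called. Rbp4, retinol binding protein and a marker of δ cells, ends 2356 bases from Ffar4 and rose to 183 ± 8.47 FPKM in Wtap-βKO, against 135 ± 5.33 FPKM in Wtap flox/flox (adjusted p = 0.00488 by limma). Of the 5 tested neighbours of Gpr119, Enox2, an oxidase gene 335228 bases away, was called, and it was lower, at 2.63 ± 0.180 FPKM in Wtap-βKO and 3.96 ± 0.722 FPKM in Wtap flox/flox (adjusted p = 0.0436 by limma, lost in 8 of 16 alternatives).

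**Figure D4:**
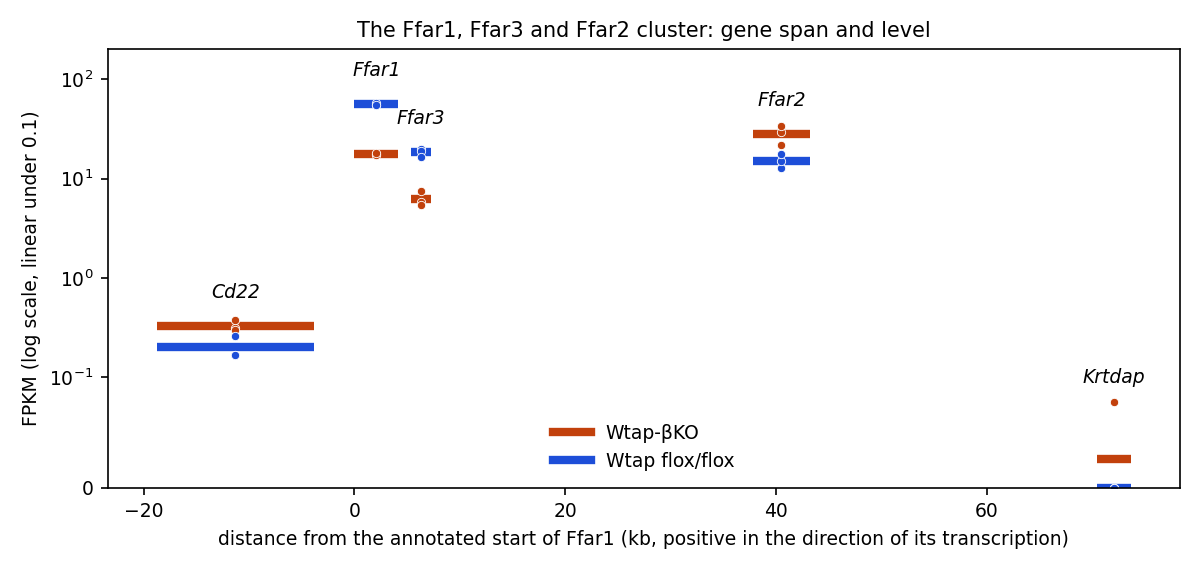
Mean FPKM of the clustered genes and their nearest neighbours, drawn as bars over each gene's span against the distance in kb from the annotated start of Ffar1, with the 3 samples of each group as points; the vertical axis is logarithmic above 0.1 and linear below. In the cluster Wtap-βKO (orange) lies below Wtap flox/flox (blue) for Ffar1 and Ffar3 and above it for Ffar2.

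The N6-methyladenosine writer acts at short motifs of which GGACT is the best known. In the longest coding transcript of each member in GENCODE M21, read on the transcript strand, GGACT occurred 5 times in Ffar1, 3 in Ffar2, 5 in Ffar3, 3 in Ffar4 and 4 in Gpr119. Of these, 2 in Ffar1, 1 in Ffar2, 3 in Ffar3, 3 in Ffar4 and 1 in Gpr119 lay in the coding part. Per kilobase that was 1.2 for Ffar1 and 3.08 for Ffar3, the receptors that fell, and 1.30 for Ffar2, 2.14 for Ffar4 and 1.76 for Gpr119. The median over 21901 coding genes was 1.01, and the share of those genes at or above the density of each receptor was 38.8% for Ffar1, 2.39% for Ffar3, 33.6% for Ffar2, 9.6% for Ffar4 and 17.2% for Gpr119. Methylation of these sites was not measured.

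Levels of cell type markers differed between the groups too. Of 10 β-cell markers, all tested, 8 fell, against 11.3% of all genes tested called lower. The median log2 fold change of the 10 was -1.03, against a median of -0.0054 over all genes tested. Their summed level was between 81970 and 92560 FPKM in Wtap-βKO samples and between 135100 and 155400 FPKM in Wtap flox/flox samples. Mafa, which drives insulin transcription in mature β cells, fell 7.26-fold, Slc2a2, the glucose transporter gene, 5.34-fold, Nkx6-1, a homeobox factor, 2.18-fold and Pdx1, another, 1.88-fold. Of the list, Mafa and Slc2a2 fell more than Ffar1 and Ffar3, and every other marker changed less than both receptors. Ins1 fell 2.575-fold (adjusted p = 0.00869 by limma, lost in 2 of 17 alternatives), G6pc2 2.44-fold, Slc30a8 1.91-fold and Ucn3 1.41-fold. For Iapp the ratio of Wtap-βKO to Wtap flox/flox was 0.984 (adjusted p = 0.935 by limma). Ins2, the main insulin gene, was 1.57-fold lower and did not pass (adjusted p = 0.190 by limma), with every Wtap-βKO sample below every Wtap flox/flox sample. It passed in 4 of 17 alternatives, with an adjusted p as low as 5.21e-05 by limma voom, so its call depends on the model. Quantile normalization gives equal values to genes of equal rank in each sample. That setting left Ins2 with no difference and so cannot judge its change.

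Of 6 δ-cell markers, all tested, 3 rose and 1 fell, against 8.77% and 11.3% of all genes tested. The median log2 fold change was 0.38. Sst, which encodes somatostatin, rose 1.68-fold (adjusted p = 0.0263 by limma, lost in 5 of 17 alternatives), beside 1.65-fold for Ffar4. Ghsr, the ghrelin receptor gene, rose 1.497-fold (adjusted p = 0.0289 by limma, lost in 7 of 16 alternatives). The summed level of the list was between 5615 and 8281 FPKM in Wtap-βKO samples and between 3967 and 4338 FPKM in Wtap flox/flox samples.

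Of 8 α-cell markers, all tested, 4 rose, against 8.77% of all genes tested. Among them was Ttr, the transthyretin gene, which rose 2.06-fold. Another, Irx2, a homeobox gene, lost its call in 8 of 17 alternatives, among them those without any 1 sample other than Wtap flox/flox replicate 1. Gcg, which makes up most of the level summed over the list, was 1.62-fold higher and did not pass (adjusted p = 0.0890 by limma), though it passed in 8 of 17 alternatives. Their summed level was between 33840 and 44680 FPKM in Wtap-βKO and between 21310 and 25520 FPKM in Wtap flox/flox. The pancreatic polypeptide genes Ppy and Pyy were both tested and neither passed. Both stood highest in Wtap-βKO replicate 2. In Wtap-βKO replicates 1 to 3 Ppy had 9428, 19590 and 8761 FPKM, and Pyy 3435, 6789 and 4036 FPKM. In Wtap flox/flox replicates 1 to 3 Ppy had 8489, 9034 and 9769 FPKM, and Pyy 3028, 3218 and 3382 FPKM. The part of these shifts in the changes of the receptors was not tested.

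FFAR2 and FFAR4 are also known in leukocytes and fat cells. None of 6 neutrophil markers reached the filter, S100a8, Ly6g and Mpo had no read in any sample, and the list summed to at most 0.415 FPKM in Wtap-βKO and 1.2 FPKM in Wtap flox/flox. Of 6 adipocyte markers, Plin1 and Lep had no read, Adipoq averaged 0 FPKM in Wtap-βKO and 0.0153 FPKM in Wtap flox/flox, and Fabp4, which endothelium and macrophages also express, rose 2.13-fold (adjusted p = 0.0214 by limma, lost in 5 of 16 alternatives). Of 5 macrophage markers, Lyz2 rose 1.83-fold and the other 4 did not pass, with summed levels between 90.5 and 97.5 FPKM in Wtap-βKO and between 76.5 and 84.0 FPKM in Wtap flox/flox. Of 5 B-cell markers, Cd79a alone was tested and fell 3.24-fold, while Ms4a1 averaged 0 FPKM in Wtap-βKO and 0.00303 FPKM in Wtap flox/flox. Other members of that list were higher without reaching the filter, Cd22 as given above and Cd79b at 0.302 ± 0.166 FPKM in Wtap-βKO and 0.108 ± 0.150 FPKM in Wtap flox/flox, with overlapping groups.

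Other exocrine and stromal markers were mostly higher or without a call. Among the markers tested, limma called 1 of 5 acinar, 2 of 5 endothelial and 2 of 4 mesenchymal ones, all higher. Over all genes tested, 8.77% were called higher. The acinar call, Ctrb1, a digestive enzyme gene, was lost without Wtap flox/flox replicate 1 or 2 or Wtap-βKO replicate 1 or 2 (adjusted p up to 0.127 by limma). Of the endothelial calls, Eng was lost without any 1 of the 6 samples and Egfl7 in each such case but that without Wtap-βKO replicate 2 (adjusted p up to 0.111 and 0.101 by limma). It called 0 of 3 ductal markers, of which 0 had an unadjusted p under 0.05. Acinar markers summed to between 148 and 210 FPKM in Wtap-βKO and between 82.2 and 149 FPKM in Wtap flox/flox. Mesenchymal markers summed to between 22.9 and 29.4 FPKM in Wtap-βKO and between 11.7 and 17.0 FPKM in Wtap flox/flox. Their part in the levels of the receptors was not tested.

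Receptors for other lipids and metabolites were mostly scarce in these islets. Of 42 listed, 13 reached the filter. Among these, 1 rose and 1 fell, 7.69% each, against 8.77% and 11.3% of all genes tested. The median log2 fold change was 0.04. Ptger3, a Gi-coupled receptor for prostaglandin E2, rose to 4.02 ± 1.06 FPKM in Wtap-βKO, against 1.94 ± 0.468 FPKM in Wtap flox/flox (adjusted p = 0.0306 by limma, lost in 6 of 16 alternatives). Hcar2, the receptor for niacin and the ketone body β-hydroxybutyrate, fell to 1.27 ± 0.0306 FPKM in Wtap-βKO, against 2.26 ± 0.399 FPKM in Wtap flox/flox (adjusted p = 0.0214 by limma, lost in 5 of 16 alternatives). Without Wtap flox/flox replicate 2 or 3, or without Wtap-βKO replicate 1 or 3, the count of higher receptors was 0. Without Wtap flox/flox replicate 1 or 3, or without Wtap-βKO replicate 1 or 3, the count of lower receptors was 0. The most abundant of the 13, S1pr1, a sphingosine 1-phosphate receptor of endothelium, had 5.67 ± 0.767 FPKM in Wtap-βKO and 4.34 ± 0.506 FPKM in Wtap flox/flox and did not pass (adjusted p = 0.0830 by limma). Each of the 5 fatty acid and lipid metabolite receptors had a higher mean FPKM than S1pr1 in both groups.

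Among G proteins and effectors that act after these receptors, 42 of 47 listed genes were tested. Of these, 6 rose (14.3%) and 11 fell (26.2%), against 8.77% and 11.3% of all genes tested. The median log2 fold change was -0.02. Genes of the Gq route went both ways. Prkca and Prkcb, protein kinases C activated by diacylglycerol, fell 1.72-fold and 1.71-fold, to 8.90 ± 0.225 and 7.35 ± 0.174 FPKM in Wtap-βKO, against 15.3 ± 0.304 and 12.6 ± 0.679 FPKM in Wtap flox/flox (adjusted p = 0.000491 and 0.000851 by limma). Prkd1, protein kinase D1, which acts after FFAR1 in β cells, rose 1.39-fold (adjusted p = 0.00378 by limma). Itpr1, an inositol trisphosphate receptor that releases calcium, rose 1.48-fold (adjusted p = 0.00337 by limma). For the Gq genes Gnaq and Gna11 the ratio of Wtap-βKO to Wtap flox/flox was 0.933 and 0.920, and neither passed (adjusted p = 0.332 and 0.226 by limma). The sign of Gnaq turned when samples were scaled to total recovered reads.

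Trpm5, whose product is a cation channel opened by calcium, had the largest fall of the list, to 1.08 ± 0.669 FPKM in Wtap-βKO, against 27.0 ± 2.24 FPKM in Wtap flox/flox (adjusted p = 0.000170 by limma). Grk5, a kinase that desensitizes receptors, fell 1.97-fold (adjusted p = 0.000686 by limma). Gnas, which encodes the Gs subunit used by GPR119, rose 1.44-fold (adjusted p = 0.0239 by limma, lost in 5 of 17 alternatives). Prkaca and Prkacb, of the kinase that cyclic AMP activates, fell 1.26-fold and 1.345-fold (adjusted p = 0.00617 and 0.00918 by limma). The Gi genes Gnai3 and Gnai2 fell 1.35-fold and 1.24-fold (adjusted p = 0.00338 and 0.0221 by limma, Gnai2 lost in 6 of 17 alternatives). Gnai1, also of Gi, did not pass. Gnao1, of the related Go, rose 1.15-fold (adjusted p = 0.0319 by limma, lost in 7 of 17 alternatives). Gna12, of another G protein class, rose 1.23-fold (adjusted p = 0.0289 by limma, lost in 6 of 17 alternatives). The count of higher genes was 3 without Wtap flox/flox replicate 1 and 2 without Wtap flox/flox replicate 2 or 3 or Wtap-βKO replicate 1 or 3. Prkca, Prkcb, Itpr1, Trpm5, Grk5, Gnas and Gna12 overlap other annotated genes, and the protocol gives no strand-marking step, so reads of the overlapping genes may be among theirs. The same holds for Fabp3, Napepld, Enox2, Ctrb1, Egfl7, Eng, Slc2a2, Pdx1, Iapp, Ttr, Atp2a2, Rybp, Scand1 and Fat1. Overlaps were not looked up for Gnaq, Gna11, Gnai1, Gnai2, Gnai3, Gnao1, Prkaca, Prkacb and S1pr1.

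Genes that supply or handle the ligands changed in part. Of 32 listed, 28 were tested. Of these, 6 rose (21.4%) and 3 fell (10.7%), against 8.77% and 11.3% of all genes tested. The median log2 fold change was 0.09. Napepld, an enzyme that makes oleoylethanolamide and related lipid amides, rose to 13.3 ± 0.765 FPKM in Wtap-βKO, against 8.25 ± 0.910 FPKM in Wtap flox/flox (adjusted p = 0.00400 by limma). The fatty acid binding protein genes Fabp5 and Fabp3 rose 4.11-fold and 2.07-fold, with Fabp5 at 3.05 ± 0.131 FPKM in Wtap-βKO and 0.743 ± 0.146 FPKM in Wtap flox/flox (adjusted p = 0.000687 and 0.0128 by limma). Cd36, which encodes a fatty acid transporter, rose 1.79-fold (adjusted p = 0.00974 by limma). Lpl, lipoprotein lipase, which frees fatty acids from circulating fat, fell 1.52-fold (adjusted p = 0.00608 by limma). Dagla, which makes a monoacylglycerol, fell 1.28-fold (adjusted p = 0.0236 by limma, lost in 7 of 17 alternatives), and Acsl4, a fatty acid activating enzyme, fell 1.23-fold (adjusted p = 0.0412 by limma, lost in 11 of 17 alternatives). The count of lower genes was 1 without any 1 Wtap flox/flox sample or without Wtap-βKO replicate 3.

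**Figure D5:**
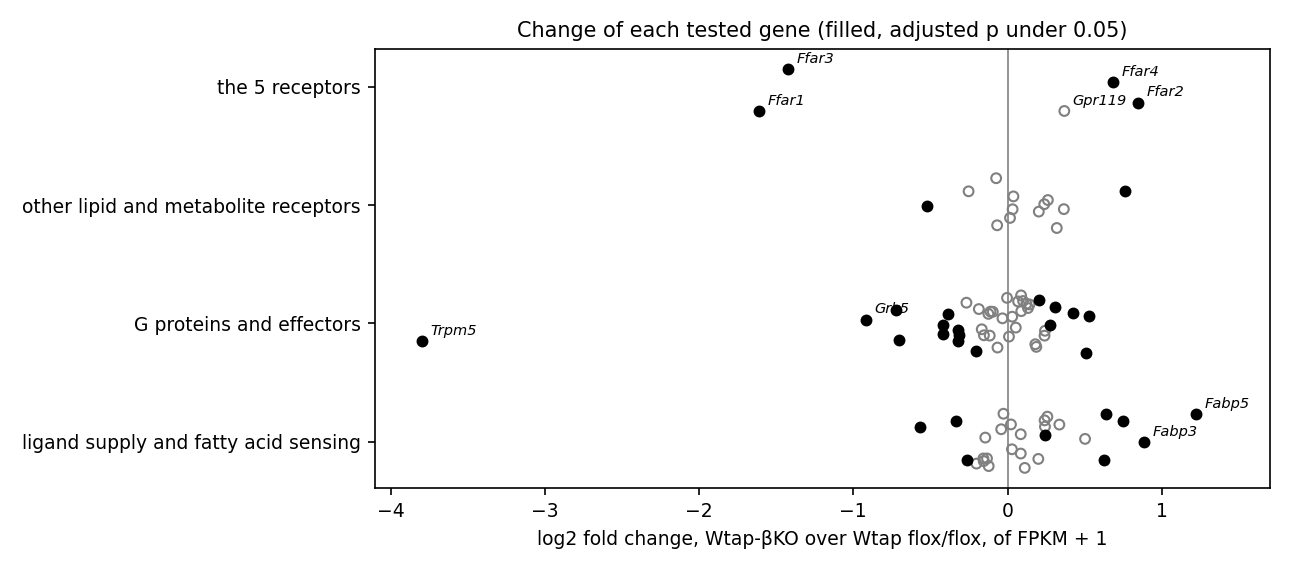
Log2 fold change, Wtap-βKO over Wtap flox/flox, of each tested gene of the 5 receptors and of the 3 lists, on the scale of FPKM + 1; filled points passed an adjusted p of 0.05, and points are spread vertically for legibility. On this scale the receptors lie between -1.61 and 0.85 and the other lipid and metabolite receptors between -0.52 and 0.76. Adding 1 shrinks the changes of scarce genes, so the 2 ranges are not on equal terms. By the ratio of means Ptger3 rose 2.07-fold, beside 1.86-fold for Ffar2. Hcar2 fell 1.79-fold, beside 3.17-fold for Ffar1 and 2.93-fold for Ffar3.

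The genes whose log2 levels ran most like each receptor over the 6 samples were taken from 7308 genes with a mean of at least 5 FPKM, pseudogenes and gene models without a proper name left out. For Ffar1 they were Papss2 (Pearson r = 0.9997), Atp2a2, Prkca, Cyp4f39 and Fhdc1 (r = 0.9988), which fell 4.12-fold, 2.40-fold, 1.72-fold, 18.6-fold and 2.56-fold. Papss2 makes the sulfate donor, Atp2a2 encodes the calcium pump of the endoplasmic reticulum and Cyp4f39 a fatty acid hydroxylase. The highest for Ffar3 was Vstm2l (r = 0.9989), which fell 3.07-fold. The highest were Rybp for Ffar2 (r = 0.9955), Scand1 for Ffar4 (r = 0.9958) and Fat1 for Gpr119 (r = 0.9906). Since 2 groups of 3 samples make up these 6 points, such values mostly follow the difference between the groups, and they are a description.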

How the data were processed

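Pancreatic islet RNA of 3 Wtap-βKO and 3 Wtap flox/flox samples was captured by its poly(A) tail and sequenced, per the labels' protocols. The values analysed are the FPKM per gene as deposited by the authors, scaled to library sizes other than total reads, with a gene length (another kind of value, in bases) in the same deposited table. The submitters' processing notes name CASAVA, HISAT2 2.0.5, featureCounts 1.5.0-p3, DESeq2 1.20.0 and GRCm38 (mm10), with no role or order. FPKM times length gave whole reads within 0.01, so depth could be recovered.

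FPKM were rescaled by median ratios, which left them unchanged, and log2(FPKM + 1) was fitted with limma 3.58.1 (R 4.3.3, variance trend) over the 15927 genes averaging 0.5 FPKM or more. P-values were adjusted by Benjamini-Hochberg over all of them, with a threshold of 0.05. The labels call the samples independent biological replicates. The summed FPKM of the receptors was compared by a two-sided exact permutation test in SciPy 1.17.1. Log2 ratios between receptors were compared by the same kind of test in R. The fit was tested on simulated data.

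The receptors, lists and markers were chosen with earlier results of these data known. The genes named are the receptors, Wtap, up to 4 genes called in each direction from each of 3 lists, the 5 neighbours on either side of each receptor and the 5 genes most correlated with it. Cell type markers, Gnaq, Gna11, Gnai1, Gnai2, Gnai3, Gnao1, Prkaca, Prkacb and S1pr1 were named besides, after their values were seen. Alternatives covered scaling, pseudocount, filter, variance model, recovered reads and leaving out each sample. Single values of some listed markers are not reported here.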

Additional observations from a re-analysis of the deposited data

How the results depend on the processing

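Ffar1, Ffar3 and Ffar4 kept their direction and call in all 17 alternatives, with log2 fold changes of -1.66 to -1.50 for Ffar1, -1.56 to -1.32 for Ffar3 and 0.58 to 0.79 for Ffar4. Ffar2 kept its direction in all 17 and lost its call in 3, each of which leaves out 1 sample; leaving out each sample in turn gave 0.71 to 1.02. Using FPKM with no rescaling is the same fit, since every scale factor was 1, and is not counted. Gpr119 passed with quantile normalization (0.42), scaling to total recovered reads (0.48), a mean FPKM of at least 5 (0.37), limma voom on recovered reads (0.39) and the replicate block (0.37, adjusted p = 0.0363 by limma), and leaving out each sample gave 0.30 to 0.49. Genes called over the whole table came, with scaling to total recovered reads, to 2334 higher and 1094 lower, and to 774 to 1384 higher and 1039 to 1862 lower without each sample. The log2 ratio of Ffar1 over Ffar3 ran between -0.21 and 0.061 without each sample, and Gnaq turned to 0.013 when scaled to total recovered reads. The cause of these shifts was not tested.

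Other lipid and metabolite receptors called higher numbered 4 when scaled to total recovered reads, 3 by voom, 2 with rescaling without the 50 highest genes, pseudocounts of 0.1 or 0.5, no variance trend or the replicate block, and 0 with no filter or a mean of at least 5; without each sample they numbered 0 to 1. Those called lower numbered 0 with no filter or a mean of at least 5, and 0 to 1 without each sample. A mean of at least 5 leaves out Ptger3 and Hcar2 before testing, so its counts of 0 cannot show whether their calls hold. G proteins and effectors called higher numbered 3 with no variance trend and 2 to 6 without each sample. Ligand genes called higher numbered 10 by voom, and those called lower 1 when scaled to total reads or without the 50 highest genes, and 1 to 3 without each sample. Of 62 named genes called, 40 kept call and direction in every alternative run.

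Samples of the same number in the labels correlated in their deviations from the group means by 0.029, 0.038 and 0.018, under the 0.1 required to call them paired, although every sample correlated best with its own number. Other count models listed as alternatives were not run, although whole reads could be recovered from the deposited FPKM. Limma voom was run on the recovered reads in their place. With 3 samples a group, exact tests cannot go below p = 0.1. Ffar3 rests on the fewest reads of the 5, at 173 to 251 in Wtap-βKO samples.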
